A study of Mus musculus with 15 samples.

Results

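Among the 12545 genes of the deposited expression table, 36 were T cell receptor segments or CD3 chains. They were found by symbol: every V, D, J or C segment of the alpha, beta, gamma and delta receptor loci, and the 4 CD3 chain genes Cd3d, Cd3e, Cd3g and Cd247. The beta locus gave 26 members (10 V, 14 J and both constant regions), the alpha locus 5 (4 V and Trac), the gamma locus 1 (Trgv2) and the delta locus 0. The mouse annotation used for the symbols holds 258 such segments, 128 of them Trav, so most segments are not listed in the table, and a segment that is not listed has no value here.

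The 15 samples were T cell leukemia lines, 1 RNA-sequencing library each, from FVB/NJ mice, compared to ask how leukemias without E2A differ once LEF1 is lost as well. All 15 lines lacked E2a, the gene for the E protein transcription factors E12 and E47. The 7 E2a-/- lines carry names with SKO, and the 8 DKO lines (E2a-/- LefF/F LckCre+) also had floxed Lef1 alleles and a Cre transgene under the Lck promoter, which acts in early thymocytes. The lines were grown out in culture from thymuses of sick mice, and the line is the replicate here. The labels do not say whether lines came from separate mice or how many cells founded a line, give no age and name no batch.

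Reads on the listed genes ran from 4847970 in DKO79.9 to 21681586 in SKO95, and all lines but DKO79.9 had at least 14477802. A count of 3 reads, taken here as not told apart from 0, is worth 0.618 CPM (reads of a gene scaled to a fixed library total) in DKO79.9 and 0.138 to 0.207 CPM in the other lines. Lef1, the targeted gene, was at 103 to 210.2 CPM in the DKO lines and at 668 to 1558 CPM in 6 E2a-/- lines, counted over the whole gene and not over the floxed exons alone. The library labelled SKO132, an E2a-/- line, was at 59.0 CPM, under every DKO line, and it also stood apart for the receptor genes, so results that rest on it are given with and without it. Of the T lineage markers, Thy1, Bcl11b, Tcf7, Gata3 and Lck were at 91.95 CPM or higher in all 15 lines, and Cd2 ranged from 0.496 to 202.9 CPM. None of the 6 B cell or 4 erythroid markers was listed, and the 2 myeloid markers listed summed to 5.48 to 13.98 CPM. Of 5 markers of thymic stroma, Col1a2 and Pdgfrb reached 947 and 411 CPM, Epcam reached 8.24 CPM, and Col1a1 and Foxn1 were not listed. The part of stroma in the results below was not tested.

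A T cell receptor is a pair of chains, alpha with beta or gamma with delta, held at the cell surface by the CD3 chains, which carry the signal inward. Each receptor gene is assembled in the thymocyte by joining 1 V, in some loci 1 D, and 1 J segment with the RAG recombinase, and the joined exon is then spliced to a constant region. Thymocytes rearrange beta, gamma and delta first. A productive beta chain pairs with the invariant pre-T alpha chain, encoded by Ptcra, and alpha genes are joined only afterwards. In the mouse beta locus the V genes lie upstream of a pair of J clusters, each followed by its own constant region, with the exception of Trbv31, which lies downstream of them in the opposite direction.

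The Trbv members that took the most reads of any Trbv member in at least 1 line, and the J genes at which reads began along a cluster, are the sequences on which the results below turn. The sequences are those of the GENCODE transcripts for GRCm38, matched by gene identifier for 10 of 10 Trbv and 14 of 14 Trbj members. They come from the reference strain and were not read from these lines. For the V genes the last 36 bases of the segment are shown, with the capitals marking TGTG, which opens with the codon of the conserved cysteine at the edge of the third hypervariable loop.
Trbv2: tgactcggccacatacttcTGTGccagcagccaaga
Trbv3: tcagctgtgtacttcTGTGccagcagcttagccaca
Trbv5: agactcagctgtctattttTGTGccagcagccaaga
Trbv13-2: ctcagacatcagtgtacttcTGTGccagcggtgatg
Trbv19: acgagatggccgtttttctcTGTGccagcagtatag
Trbv20: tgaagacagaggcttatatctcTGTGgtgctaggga
Trbv26: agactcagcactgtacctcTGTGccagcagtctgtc

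On GRCm38 the Trbv2 stretch is chr6:41047960-41047995 and that of Trbv26 is chr6:41227958-41227993, both on the plus strand. The J segments are shown whole as GENCODE gives them, with the capitals marking TTTGG or TTCGG, the phenylalanine and first glycine codons of the motif that closes the loop. Of the 14 Trbj sequences, 12 have the width given in the expression table. Trbj1-3 has 50 bases here and a width of 54 there. These letters were found in 11 of the 14 Trbj members (78.6%) and in 62 of all 80 annotated J segments (77.5%), and on the opposite strand in 0 of the 14 and 6 of the 80.
Trbj1-1: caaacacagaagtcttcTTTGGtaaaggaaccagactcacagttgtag
Trbj1-2: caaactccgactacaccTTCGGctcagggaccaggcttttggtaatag
Trbj1-3: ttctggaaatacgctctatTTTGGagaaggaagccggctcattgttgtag
Trbj1-6: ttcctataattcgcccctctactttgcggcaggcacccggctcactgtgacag
Trbj2-1: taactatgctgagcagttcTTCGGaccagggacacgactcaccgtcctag
Trbj2-3: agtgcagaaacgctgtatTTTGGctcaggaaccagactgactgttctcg
Trbj2-5: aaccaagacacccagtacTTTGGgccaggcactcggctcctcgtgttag
Trbj2-7: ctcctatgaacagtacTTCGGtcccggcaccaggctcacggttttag

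Trbj1-1 lies at chr6:41533864-41533911 and Trbj2-5 at chr6:41543453-41543501 of GRCm38, on the plus strand. Trbj1-6 holds neither form of the motif searched. The expression table uses coordinates of another assembly and places Trbj1-1 at 41483863 to 41483910 and Trbj2-5 at 41493452 to 41493500 of chromosome 6.

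The beta locus held nearly all CPM of the receptor members in 14 of the 15 lines. The 26 beta members summed to 472 to 1105 CPM in DKO lines (median 583) and 520 to 1661 CPM in the E2a-/- lines (median 734), and the 2 ranges overlapped. As a share of all receptor members the beta sum was 95.9% to 99.5% in DKO lines and 97.0% to 98.9% in 6 E2a-/- lines. In SKO132 the share was 77.5%, because 22.5% of its receptor CPM lay on alpha members. These shares leave out gamma genes listed under older Tcrg names, with which the gamma sum was 196 CPM in SKO115.2 and 154 CPM in SKO163.5. Segments that are not listed are left out as well. SKO163.5 had the highest beta sum, and the other 576 listed genes of chromosome 6, where the locus lies, were also shifted up in this line by a median of 0.27 on the log2 scale relative to the autosomes, against -0.07 to 0.17 in the other lines. The part of that shift in the beta sum was not tested. In bulk RNA, fewer cells of a type and less RNA per cell cannot be told apart.

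**Figure D1:**
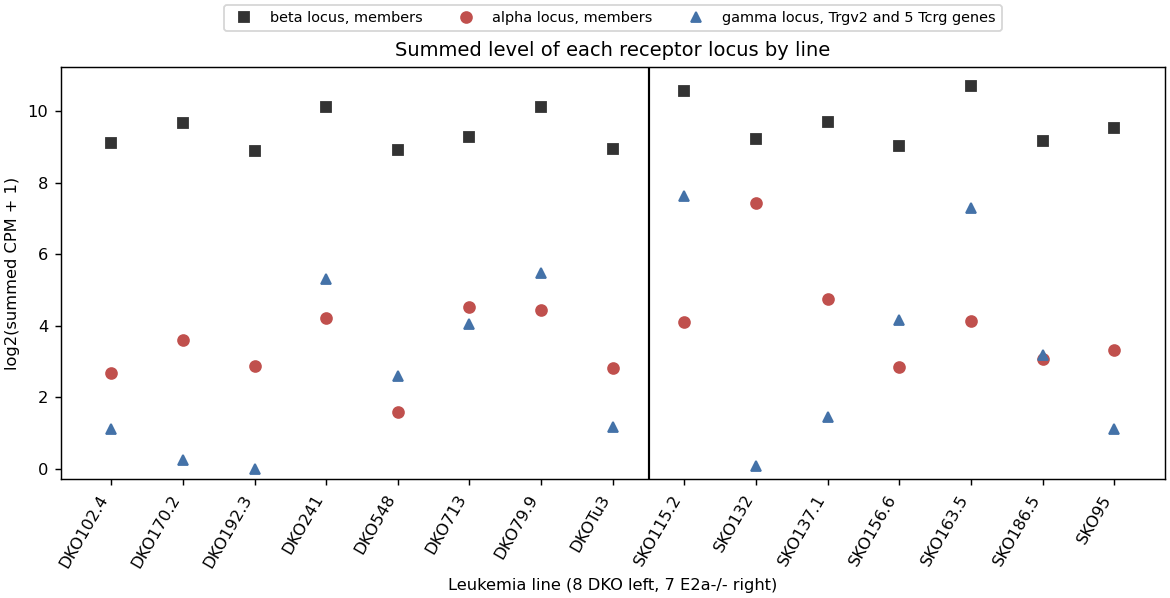
Summed level of each receptor locus in the 15 lines, on a log2(CPM + 1) axis, with squares for the 26 beta members, circles for the 5 alpha members and triangles for Trgv2 together with 5 gamma genes named Tcrg. The beta sum is the highest of the 3 in every line (472 to 1661 CPM), the alpha sum of SKO132 (171 CPM) stands above the other lines (2.01 to 25.7 CPM), and the gamma sum runs from 0 to 196 CPM.

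The constant region Trbc2, the exons shared by every chain joined to the second J cluster, was at 109 to 742 CPM in DKO lines (median 305) and 184 to 844 CPM in the E2a-/- lines (median 309). The groups overlapped, and limma gave a log2 fold change (DKO over E2a-/-) of -0.02 (SE, the standard error, 0.43, adjusted p = 0.993). Trbc1, the constant region of the first cluster, fell into a high and a low set of lines, and SKO132 was the only E2a-/- line in the low set. Trbc1 was at 58.5 to 296 CPM in 5 DKO lines and 85.5 to 383 CPM in 6 E2a-/- lines. In DKO241, DKO548, DKOTu3 and SKO132 it was at 0.276 to 0.850 CPM. Its log2 fold change was -1.78 (SE 1.49, adjusted p = 0.707 in limma), and -2.80 (SE 1.30, adjusted p = 0.403) without SKO132.

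As a share of the reads on both constant regions, Trbc1 took 0.0892% in SKO132 (95% Wilson interval 0.0381% to 0.209%), 0.114% in DKO241, 0.193% in DKO548 and 0.227% in DKOTu3. In the other 11 lines it took between 9.21% in SKO163.5 and 60.9% in DKO713. DKO713 and SKO186.5 (50.4%) were the lines in which Trbc1 exceeded Trbc2. The genes are near copies, identical at 488 of 512 compared bases (95.3%) with a longest identical run of 259 bases, and how reads that match both were counted is not stated. In the 4 low lines, 5 to 16 reads fell on Trbc1 against 4141 to 13973 on Trbc2, so spill from Trbc2 into Trbc1 was at most of this order there.

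The J genes split the lines in the same place. J reads are few, since the segments are 45 to 54 bases wide in the table, and a read on a J gene may come from the joined chain or from RNA of the unjoined cluster, so a J gene with reads is not by itself the one in use. In DKO241, DKO548, DKOTu3 and SKO132, the 4 lines with almost no Trbc1, all 7 Trbj1 genes were at exactly 0 reads. In DKO102.4, DKO192.3, DKO79.9, SKO137.1 and SKO95 all 7 were above 3 reads. The remaining 6 lines had reads on the downstream end of the cluster only. They began at Trbj1-2 in DKO713, at Trbj1-3 in SKO156.6 and SKO186.5, and at Trbj1-6 in DKO170.2, SKO115.2 and SKO163.5.

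The step was sharp. In DKO713 Trbj1-1 had 0 reads, Trbj1-2 had 15 (0.725 CPM) and Trbj1-3 was at 7.49 CPM. In SKO186.5 Trbj1-1 and Trbj1-2 were at 0, Trbj1-3 at 3.65 CPM and Trbj1-4 at 13.6 CPM. In SKO163.5 the 5 genes from Trbj1-1 to Trbj1-5 were at 0 and Trbj1-6 was at 10.3 CPM. With clusters without any reads included, 64 pairs of a J gene and a line lay upstream of the first gene above 3 reads. These 64 held 6 reads in all, where by definition each could hold at most 3. The clusters without any reads have no step. From the first gene on, every later gene of the cluster was above 3 reads in 14 of 15 lines, the exception being DKO170.2, where Trbj1-7 and Trbj2-5 were not.

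The second J cluster was covered from Trbj2-1 to Trbj2-7 in 10 lines, 5 of each genotype. In SKO132 and SKO95 reads began at Trbj2-3, at 6.23 and 1.24 CPM, and in DKO192.3 at Trbj2-5, at 1.26 CPM. DKO170.2 had 43 reads over the whole cluster, and Trbj2-3 was its first gene above 3 reads. DKO713 had 10 reads on the 7 genes, 6 of them on Trbj2-7, although 2263 reads lay on its Trbc2. It was thus the reverse of DKO241, DKO548, DKOTu3 and SKO132: J reads of the first cluster summed to 55.7 CPM and those of the second to 0.483 CPM.

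**Figure D2:**
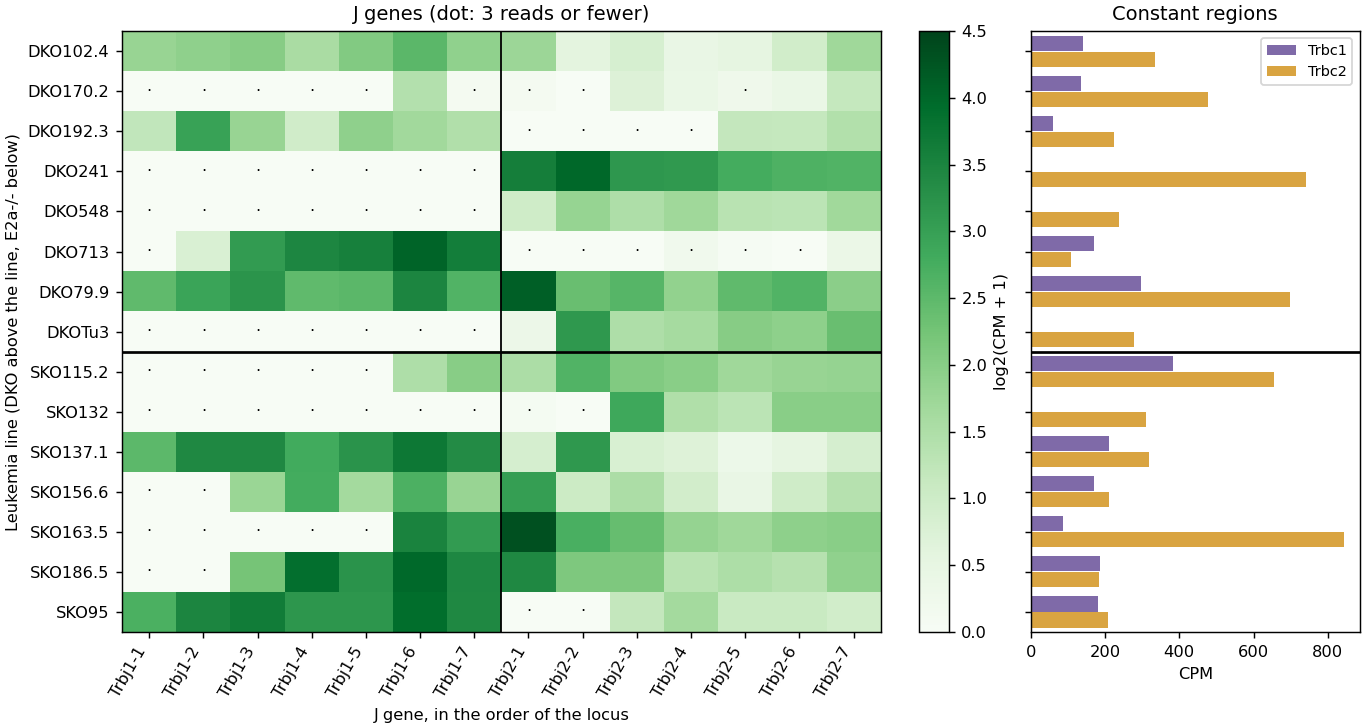
Left, log2(CPM + 1) of the 14 Trbj genes in the order of the locus (columns) in the 8 DKO and 7 E2a-/- lines (rows), with a dot where a gene had 3 reads or fewer. Right, CPM of Trbc1 and Trbc2 in the same lines. The 4 lines with a blank first cluster (DKO241, DKO548, DKOTu3 and SKO132) are those whose Trbc1 bar cannot be seen (0.276 to 0.850 CPM).

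The reads on listed beta V genes fell largely on 1 gene in most lines. Since 10 of the 35 annotated Trbv genes are listed, a share here is one of the listed V reads, and a line may use a V gene that has no value. Among the 10 Trbv members, the first gene took 42.6% to 99.7% of the V reads in DKO lines (median 89.0%) and 61.1% to 96.1% in E2a-/- lines (median 85.8%). V reads numbered 926 to 12548 per line apart from DKO79.9, which had 136. The inverse Simpson index, the number of equally used V genes that would give the same evenness, was 1.01 to 3.41 in DKO lines (median 1.25) and 1.08 to 2.42 in E2a-/- lines (median 1.35). Neither measure separated the genotypes.

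The low value of 42.6%, with Trbv5 first, belongs to DKO102.4, in which the symbol rule missed the main gene. ENSMUSG00000076464, a gene without a symbol in the annotation that the table lists between Trbv3 and Trbv5 at 41009442 to 41009880 of chromosome 6, had 4728 reads there (231 CPM) and 834 reads (172 CPM) in DKO79.9, and at most 3.12 CPM in the other 13 lines. With this gene and the rarer ENSMUSG00000076468 counted as V genes, a choice made after their values were seen, ENSMUSG00000076464 took 83.6% of V reads in DKO102.4 (95% Wilson interval 82.6% to 84.6%) and 84.8% in DKO79.9 (82.5% to 86.9%). The first gene then took 72.2% to 99.6% in DKO lines (median 86.0%), and the median of the E2a-/- lines became 85.5%. Summed V CPM over summed Trbc CPM then ran from 0.204 in DKO79.9 and 0.275 in SKO156.6 to 1.005 in DKO713. The shares that follow use this wider set.

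In the 15 lines 7 different V genes came first, and Trbv19 and Trbv20 did so in both genotypes. Trbv19 led in DKO548 (96.1%), DKO713 (87.1%), DKOTu3 (81.1%) and SKO163.5 (93.2%). Trbv20 led in DKO192.3 (72.2%), DKO241 (99.6%) and SKO115.2 (85.5%). Trbv5 led in SKO132 (61.1%) and SKO137.1 (96.0%), Trbv26 in SKO156.6 (61.5%) and SKO186.5 (80.9%), Trbv3 in DKO170.2 (90.6%) and Trbv2 in SKO95 (94.2%). ENSMUSG00000076464, Trbv19 and Trbv20, grouped here after their values were seen, led in 7 of the 8 DKO lines and in SKO115.2 and SKO163.5. By the members alone, DKO102.4 would have been a line led by Trbv5, and DKO79.9 one led by Trbv13-2 (92.6% of 136 reads).

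**Figure D3:**
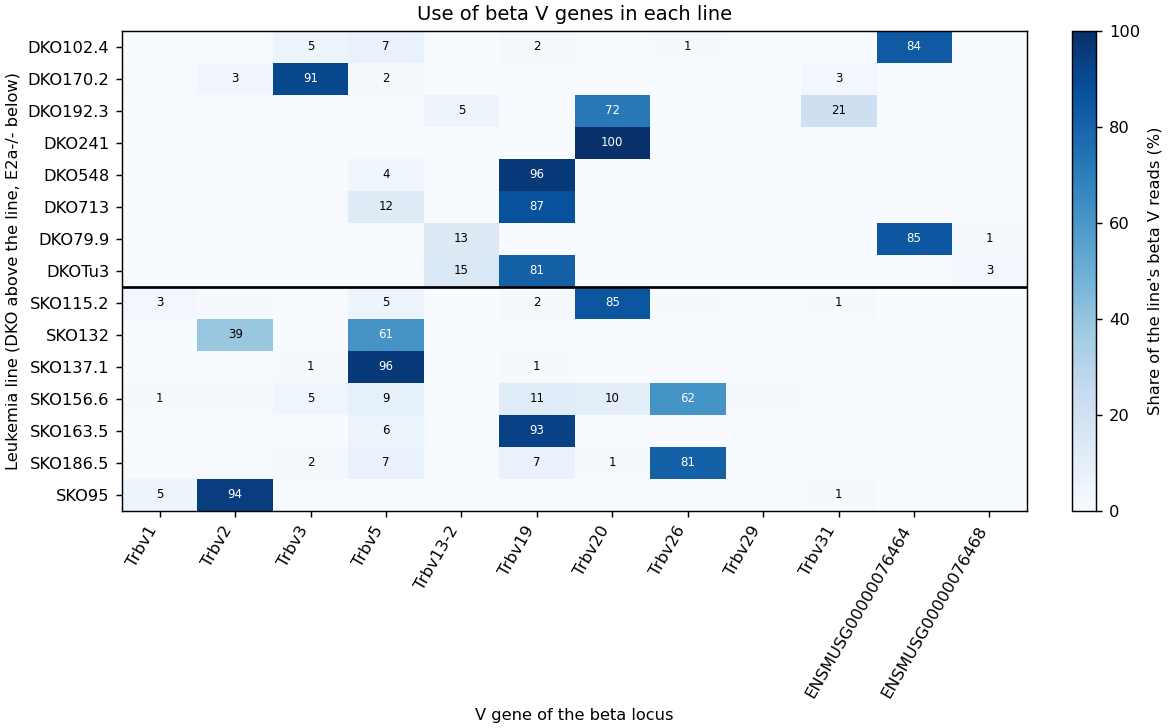
Share of each line's beta V reads, in percent, on the 10 Trbv members and on 2 V region genes without a symbol (columns), for the 8 DKO and 7 E2a-/- lines (rows), with values of 1% or more printed. Each row has 1 dark cell of 72% or more, except SKO132 (61% and 39%) and SKO156.6 (62%).

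A second V gene was sizeable in some lines. SKO132 split its V reads between Trbv5 (2919 reads, 61.1%) and Trbv2 (1854 reads, 38.8%), with 7 reads on all other V genes. DKO192.3 had Trbv31, the V gene downstream of the constant regions, at 21.3% (770 reads) and Trbv13-2 at 4.91%. DKOTu3 and DKO79.9 had Trbv13-2 second, at 14.6% and 12.8%. In DKO713 Trbv5 took 11.8% beside Trbv19. SKO156.6 was the most even line, with an inverse Simpson index of 2.43: after Trbv26 came Trbv19 at 11.5% of V reads, followed by Trbv20 and Trbv5. DKO241 was the least even, with 21 reads on all V genes other than Trbv20.

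Trbv13-2 had reads in DKO192.3 (8.27 CPM), DKO79.9 (26.0 CPM) and DKOTu3 (28.9 CPM) and was at 0 reads in the other 5 DKO lines and in all 7 E2a-/- lines. ENSMUSG00000076468, which the table lists next upstream of it, had reads in the same 3 lines, at 1.075, 2.68 and 5.05 CPM. Whether the lines at 0 reads carry these genes in their genome was not tested, so 0 reads may not describe V use. In limma Trbv13-2 had a log2 fold change of 1.61 (SE 0.80, adjusted p = 0.52), a value set by the pseudocount. Trbv2 was high in SKO95 (253 CPM) and SKO132 (102.3 CPM) and at 0.212 to 6.38 CPM in the other 13 lines. Its log2 fold change was -1.95 (SE 1.06, adjusted p = 0.566) and -1.31 without SKO132.

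The V genes thus had large levels in few lines, and no V gene separated the genotypes. Trbv19 ranged from 0.0531 to 245 CPM in the DKO lines and from 0 to 631 CPM in the E2a-/- lines. Trbv20 ranged from 0 to 293 CPM and from 0 to 388 CPM. Trbv5 was at 0.159 to 33.1 CPM in DKO lines (median 2.37) and 0 to 222 CPM in the E2a-/- lines (median 22.5), with a log2 fold change of -2.40 (SE 1.09, adjusted p = 0.473 in limma). Trbv26 reached 2.79 CPM in the DKO lines and 104 CPM in the E2a-/- lines, with 4 E2a-/- lines at 0.435 CPM or lower.

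Sharing a V gene did not mean sharing a J pattern. Over the 105 pairs of lines, 12 pairs had the same first V gene. These shared 61.6% to 96.9% of their V reads, taken as the sum over genes of the smaller share. The other 93 pairs shared 0.0893% to 38.8%. A pair with the same first V gene shares at least the smaller of its first shares, so this contrast follows from the sorting. Of the 12 pairs, 2 also had the same first J gene in both clusters: DKO102.4 with DKO79.9, and SKO156.6 with SKO186.5. DKO548 and DKOTu3, another of the 12, both lacked reads on the first cluster, and reads on the second began at Trbj2-1. The lines of these pairs still differed elsewhere. Trbv13-2 was at 0 reads in DKO102.4 and DKO548 but at 126 and 550 reads in DKO79.9 and DKOTu3, and Trbv20 had 151 reads in SKO156.6 but 32 in SKO186.5. The first V and J genes do not identify a joined chain, and no sequence of a junction was analysed here.

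Alpha chain RNA was low except in 1 line. Trac, the alpha constant region, was at 1.04 to 19.9 CPM in DKO lines (median 7.88) and 5.32 to 18.4 CPM in 6 E2a-/- lines. In SKO132 it was at 112 CPM, or 2024 reads. Per length, Trac was 0.543% to 8.90% of both Trbc genes (their summed CPM over their mean width) in DKO lines, 1.74% to 4.35% in 6 E2a-/- lines and 45.1% in SKO132. The log2 fold change of Trac was -0.91 (SE 0.61, adjusted p = 0.634 in limma) and -0.43 (adjusted p = 0.76) without SKO132. The other 427 listed genes of chromosome 14, where the alpha locus lies, were shifted up by a median of 0.45 on the log2 scale in SKO132 and 0.46 in SKO137.1. Trac in SKO137.1 was at 18.4 CPM. The part of this shift in the value of SKO132 was not tested.

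The 4 Trav members followed the same line. Trav21-dv12, a V gene that can join to alpha or delta, was at 54.2 CPM (983 reads) in SKO132 and at 3.29 CPM or lower in the other 14 lines, with 7 of them at 0. Trav3-1 was highest in SKO137.1 at 3.98 CPM, and Trav18 and Trav6n-6 did not exceed 2.15 CPM in any line. Over these 4 genes the lowest adjusted p of limma was 0.551. Since 124 of the 128 annotated Trav genes and all 60 Traj genes are not listed, the alpha V use of a line cannot be described from this table.

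Of the gamma locus the rule took only Trgv2, which was at 10.6 CPM in DKO241, 4.20 CPM in DKO713, 13.1 CPM in SKO163.5 and 3.73 CPM in SKO156.6, and at 1.90 CPM or lower elsewhere. Its log2 fold change was -0.44 (adjusted p = 0.851 in limma). Another 5 gamma genes are listed under the older Tcrg names. The constant region Tcrg-C4 was at 155 CPM in SKO115.2, 44.4 CPM in SKO163.5 and 40.8 CPM in DKO79.9, and at 4.14 CPM or lower in the other 12 lines. Tcrg-C2 was highest in SKO163.5 (31.9 CPM) and DKO241 (23.6 CPM), and Tcrg-C1 in SKO163.5 (36.8 CPM). Tcrg-V1 was at 35.1 CPM in SKO115.2, and Tcrg-V4 at 19.5 CPM in SKO163.5 and at 0 in 13 lines. With these genes the gamma sum was 196 CPM in SKO115.2 and 154 CPM in SKO163.5, 0 to 43.1 CPM in the DKO lines and 0.0552 to 17.0 CPM in the other 5 E2a-/- lines.

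SKO115.2 and SKO163.5 also had the 2 highest sums over a list of genes known from gamma-delta T cells, though not the highest level of each gene. The 7 markers reported (Sox13, Blk, Etv5, Cd163l1, Maf, Zbtb16 and Id3) summed to 924 and 564 CPM there, against 59.3 to 499 CPM in the other E2a-/- lines and 6.90 to 371 CPM in DKO lines. Sox13 was at 176 and 162.9 CPM, the highest levels of all lines. Blk, Etv5 and Maf were highest in SKO115.2, but for each of them other lines also exceeded SKO163.5. Cd163l1 (111.5 CPM) and Id3 (172.5 CPM) were highest in DKO79.9, and Zbtb16 (70.7 CPM) was highest in SKO186.5. SKO95 was close for Sox13 (103 CPM) and Etv5 (380 CPM) but had 0.922 CPM on the 3 Tcrg constant regions. In SKO115.2 and SKO163.5 the beta sum was 1516 and 1661 CPM, the 2 highest of the study. The part of such cells in the gamma values was not tested. No delta segment is listed, so gamma with delta cannot be compared.

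The CD3 chains, which every form of the receptor needs, were expressed in all 15 lines. Cd3d was at 330 to 658 CPM in DKO lines (median 527) and 290 to 579 CPM in 6 E2a-/- lines, and at 47.0 CPM in SKO132. Cd3g was at 374 to 1036 CPM in DKO lines (median 587), 448 to 699 CPM in 6 E2a-/- lines and 142 CPM in SKO132. Cd3e was at 280 to 618 CPM in DKO lines (median 427), 274 to 461 CPM in 6 E2a-/- lines and 184 CPM in SKO132. SKO132 was thus the lowest of the 15 lines for all 3 of the chains that share a stretch of chromosome 9, while for Cd247, the zeta chain on chromosome 1, it was the highest E2a-/- line (158 CPM, others 117 to 150.5).

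Between genotypes the 3 clustered chains were slightly higher in DKO lines without passing the threshold. The log2 fold changes were 0.82 for Cd3d (SE 0.40, adjusted p = 0.517), 0.46 for Cd3e (SE 0.20, adjusted p = 0.463) and 0.41 for Cd3g (SE 0.29, adjusted p = 0.655) in limma. Without SKO132 they were 0.38 (adjusted p = 0.382), 0.34 (adjusted p = 0.495) and 0.13 (adjusted p = 0.807). Cd247 was at 101.8 to 215 CPM in the DKO lines and 117 to 158 CPM in the E2a-/- lines, with a log2 fold change of 0.06 (SE 0.16, adjusted p = 0.93). All 4 pairs of ranges overlapped. Of the summed CPM of the 4 chains, Cd3g took 26.8% to 44.6% over the 15 lines and Cd3e 18.6% to 34.7%. Cd3d took 8.85% to 36.8% (median 29.4%) and Cd247 7.003% to 29.7% (median 8.57%), with SKO132 at the low end for Cd3d and at the high end for Cd247.

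**Figure D4:**
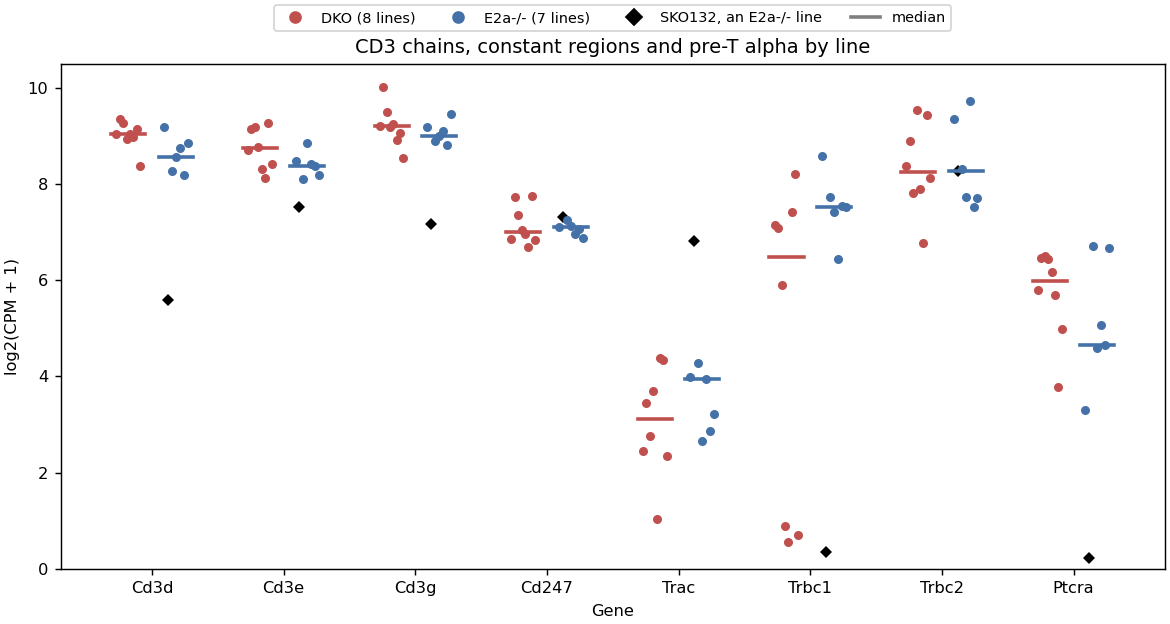
log2(CPM + 1) of the 4 CD3 chains, 3 constant regions and Ptcra, with 1 point per line, DKO lines in red, E2a-/- lines in blue, SKO132 as a black diamond and bars at the group medians. SKO132 is the lowest line for Cd3d, Cd3e, Cd3g, Trbc1 and Ptcra and the highest for Trac (112 CPM), and the genotypes overlap for each of the 8 genes.

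In limma 0 of the 36 members had an adjusted p under 0.01, where 0.0478% of all 12545 genes did (6 genes). At an unadjusted p under 0.05 there were 3 of 36, Trbv1 and Trbv5 lower and Cd3e higher in DKO lines. Over all genes 10.2% had an unadjusted p under 0.05. The groups failed to overlap for 0 of the 36 members and for 0.175% of all genes. The median log2 fold change was -0.28 over the 36 members and -0.02 over all genes. Of the members 12 were above 0 and 24 below, and of all genes 5810 were above and 6735 below. The signs of members are not independent, since the Trbj1 genes and Trbc1 were at or near 0 in the same lines. The edgeR quasi-likelihood test on the recovered reads called 0 members and 0.00797% of all genes (1 gene). At an unadjusted p under 0.05 it had 7 of the 36 members and 10.8% of all genes.

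DESeq2 called 2 members, Trbv13-2 (adjusted p = 2.15e-12) and Trbv2 (adjusted p = 0.000724), where it called 1.41% of all genes. These are the V genes with reads in 3 DKO lines only and with high levels in 2 E2a-/- lines only. Their fitted log2 fold changes, 24.02 and -5.24, depend on the model where a group is at or near 0 and give no size of a difference. Trbv1, which the naming rule does not take, was at 11.4 CPM in SKO115.2 and 12.9 CPM in SKO95 and at 1.38 CPM or lower in the other 13 lines.

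Of 25 genes of receptor assembly and proximal signalling, limma called 0, with 1 at an unadjusted p under 0.05 (Cd2). The edgeR quasi-likelihood test called 0, with 1 at that unadjusted p, and DESeq2 called 1, Cd2 (adjusted p = 0.000807). Over all genes, limma called 0.0478%, edgeR 0.00797% and DESeq2 1.41%. At that unadjusted p there were 10.2% of all genes in limma and 10.8% in edgeR. Cd2, an adhesion receptor, was at 3.68 to 13.5 CPM in the DKO lines and 0.496 to 203 CPM in the E2a-/- lines. Ptcra, the pre-T alpha chain, was at 12.8 to 89.7 CPM in DKO lines (median 62.9), 8.91 to 104 CPM in 6 E2a-/- lines and 0.166 CPM, or 3 reads, in SKO132. Its log2 fold change was 1.27 (SE 0.79, adjusted p = 0.606) and 0.56 without SKO132.

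Among the recombination genes, Rag1 was at 228 to 2228 CPM in the DKO lines and 207 to 1594 CPM in the E2a-/- lines, and Dntt, which adds bases at junctions, at 107 to 1110 CPM and 372 to 1995 CPM. Rag2 ranged from 2.50 to 94.7 CPM in the DKO lines and was at 0.166 CPM in SKO132 and 23.4 to 51.6 CPM in the other E2a-/- lines. The line with the most Trac therefore had the least Ptcra and Rag2 of the 15. Of the coreceptors, Cd4 stayed at 44.2 CPM or lower in every line, and Cd8a ranged from 3.30 to 299 CPM in the DKO lines and from 0.230 to 290.1 CPM in the E2a-/- lines. Lck, the kinase bound to the coreceptors, Zap70, the kinase recruited to the CD3 chains, and Lat, their adaptor, had log2 fold changes of 0.01, 0.39 and -0.23, with adjusted p of 0.993, 0.674 and 0.73 in limma. Zap70 was at 35.9 CPM in SKO132 and 135 to 232 CPM in the other 14 lines, and without SKO132 its log2 fold change was 0.07.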

How the data were processed

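RNA-seq of 15 leukemia lines was used, 8 DKO and 7 E2a-/-, grouped by the genotype in the labels, with 1 library per line. The authors trimmed reads with Trimmomatic 0.33, aligned them to mm10 with TopHat2 2.1.0, counted them per gene with HTSeq 0.6.1 and scaled the counts with edgeR. The deposited values are CPM, and the strand setting of the counting is not given in the sources used here. Whole reads were recovered by taking the smallest value above 0 in a line as 1 read, and 100% of values were then whole within 0.01. Shares, Wilson intervals (95%, counting error only) and the tests with edgeR 4.0.16 and DESeq2 1.42.0 used these reads. The depth per line is given with the results. Genes were matched by identifier to symbols (12172 of 12545). The table gives no biotype, so those of GENCODE and RefSeq were used. The number of columns of values left unused was 0.

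The groups were compared with limma 3.58.1 (R 4.3.3) on log2(CPM + 1) with a variance trend, over all 12545 genes, two-sided, with Benjamini-Hochberg adjustment and a threshold of 0.01. No sum, share or list was tested. Labels do not say whether lines came from separate mice, so p-values measure only the spread between these lines. On simulated counts the scripts recovered the planted changes. Those changes were of equal size, with the same setting for the spread between lines in every gene. They check the scripts only and give no power for members that are on or off between lines. The genes named are the CD3 chains, the constant regions, the top V and J gene of each line and locus, members called, 10 pathway genes and Lef1. Other genes were named after their values were seen. The members and lists were chosen with earlier results of these data known. From the list of gamma-delta T cell markers, 1 item is not reported here, and the sums leave it out.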

Additional observations from a re-analysis of the deposited data

Results flagged for a closer look

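Values that stood apart within the 8 DKO or the 7 E2a-/- lines were found with Dixon's ratio. It is the gap between the outermost line and its neighbour over the full range. It was taken on log2(CPM + 1) for genes and locus sums and on percentages for shares. The values printed below are CPM or percentages. For normally distributed values, chance puts about 1 in 20 groups past the 95% critical value. That rate does not apply to the V and J genes, which were named for leading in a line and are at or near 0 in many others. Of 79 comparisons 18 passed, and 10 of the 18 concern SKO132. The comparisons share lines and genes and are not independent.

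SKO132 was above the other E2a-/- lines for Trac (112 CPM, next 18.4), Trav21-dv12 (54.2 CPM, next 1.12) and the alpha sum (171 CPM, next 25.7). It was below them for Trbc1 (0.276 CPM, next 85.5), Cd3g (142 CPM, next 448), Cd3d (47.0 CPM, next 290), Rag2 (0.166 CPM, next 23.4), Lck (319.5 CPM, next 727.5), Zap70 (35.9 CPM, next 135) and Lef1 (59.0 CPM, next 668).

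Among the V genes, Trbv19 stood apart in SKO163.5 (631 CPM, next 12.1), Trbv20 in SKO115.2 (388 CPM, next 10.4), Trbv2 in DKO170.2 (6.38 CPM, next 1.47 among DKO lines) and Trbv26 in DKO102.4 (2.79 CPM, next 0.0638 among DKO lines). DKO102.4 had the lowest share of Trbv reads on the first gene (42.6%, next 72.7%), which became 83.6% with the V genes without a symbol. DKOTu3 was lowest among DKO lines for Cd3d (330 CPM, next 488). Dntt was low in DKO79.9 (107 CPM, next 427 among DKO lines) and high in SKO95 (1995 CPM, next 675 among E2a-/- lines). No explanation was tested for these values.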

How the results depend on the processing

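For 35 named genes, 312 log2 fold changes were recomputed under another pseudocount, filter, scaling or test or with SKO156.6 and SKO186.5 averaged, and 22 of them changed sign. Another 525 were recomputed with 1 line left out, and 61 of these changed sign. The changes of sign fell in 13 genes, and the other 22 genes kept their direction under these alternatives. No paired analysis was possible because the labels give no shared replicate numbers. The number of members called was 0 under every alternative except DESeq2 (2), and that of pathway genes 0 except under DESeq2 (1). Adding the Tcrg genes by biotype moved the median gamma sum of E2a-/- lines from 0.726 to 8.01 CPM, and adding every listed gene of the locus, chosen after seeing the data, moved it to 8.11 CPM. The median of DKO lines moved from 0 to 3.16 CPM under both. With 1 line left out, that of E2a-/- lines ran from 0.478 CPM (without SKO156.6, SKO163.5 or SKO186.5) to 1.31 CPM (without SKO132, SKO137.1 or SKO95). The other group medians of a locus sum, of the first V share and of the Trbc1 share moved by less than 1.5 times under the alternatives tried.

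Signs changed as follows, and the cause was not tested. With the edgeR quasi-likelihood test and with DESeq2, values were -0.26 and -0.25 for Trbv19, -0.44 and -0.42 for Trbj1-2, 0.18 and 0.18 for Trbj2-2, 0.05 and 0.05 for Rag2, -0.34 and -0.35 for Cd4, -0.15 and -0.17 for Cd8b1, and -0.03 and -0.04 for Lck. Trav21-dv12 was at 0.31 with DESeq2, Trbv20 at -0.13 with edgeR and -0.23 at a pseudocount of 0.1, Cd8b1 at -0.05 at a pseudocount of 2, and Trbj1-2 at -0.07 with the 2 lines averaged. Trbc2 was at 0.0025 with median-of-ratios scaling, 0.01 with TMM and 0.01 with edgeR. With 1 line left out, values ran from -0.03 to 0.12 for Cd247, -0.69 to 0.30 for Trav21-dv12, -0.27 to 0.76 for Trbv3, -0.32 to 1.35 for Trbv19, -0.83 to 1.13 for Trbv20, -0.18 to 0.50 for Trbj1-2, -0.53 to 0.07 for Trbj2-2, -0.18 to 0.21 for Trbc2, -1.02 to 0.05 for Rag2, -0.03 to 0.45 for Dntt, -0.23 to 0.58 for Cd4, -0.57 to 0.47 for Cd8b1 and -0.21 to 0.12 for Lck. Lef1 had an adjusted p of 0.098 with all lines and 4.88e-06 without SKO132. Reads over a V to J junction, near-identical segments and the shallow DKO79.9 limit the counts of V and J genes.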

Other observations

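The table lists 12 genes inside the 3 receptor loci that the symbol rule does not take, among them 5 Tcrg genes and 2 beta V region genes described above. ENSMUSG00000076860, listed upstream of Trav18 on chromosome 14, was at 17.98 CPM in SKO132 and 0 to 7.59 CPM in the other 14 lines. B230359F08Rik, annotated as a V gene and listed upstream of it, was highest in SKO132 as well, at 6.78 CPM, followed by DKO79.9 at 5.36 CPM. ENSMUSG00000076491, a stretch of 14 bases between Trbc1 and Trbj2-1, had reads in 9 lines, with 70 in SKO95 and 41 in SKO115.2, and 0 in DKO192.3, DKO241, DKO548, DKO79.9, DKOTu3 and SKO132. ENSMUSG00000076756, which overlaps the start of Tcrg-C4 in the table, was above 1 CPM in DKO79.9 (2.68), SKO115.2 (2.85) and SKO163.5 (1.94), the 3 lines with the most Tcrg-C4, and as both lie on the plus strand, reads of the overlap cannot be told apart.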
